A study of Homo sapiens with 10 samples.

Results

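GIFN4 is a protein that the series title groups with 2 others as partial agonists of interferon gamma (IFNG), and here it is set against wild-type IFNG. The comparison uses 4 of the 10 libraries of the series: GIFN4 A and B and IFNG WT A and B, taken by their titles. All libraries are from A549, a human lung cancer cell line. Cells received GIFN4 or wild-type IFNG for 48 h, both at a recorded 62 nM, a figure written with a point and no digit behind it. The letters A and B mark 2 libraries per group that the series calls biological replicates. Untreated cells, GIFN2 and GIFN3, with 2 libraries each, enter only where stated. The changes that make GIFN4 differ from wild-type IFNG in its sequence or receptor binding are not given in the sources used here.

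IFNG is a homodimeric cytokine that binds the receptor chains IFNGR1 and IFNGR2. The receptor signals through the kinases JAK1 and JAK2, and the response includes genes for antigen presentation and chemokines. A partial agonist is a ligand that occupies a receptor and gives a smaller response than the full agonist at saturation. Epithelial cells such as A549 carry this receptor and respond to IFNG directly.

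Each file gives 1 log2 ratio per line for 20812 lines, read here as a ratio to untreated cells of that letter because the untreated files hold 0 throughout. No source used here states how the ratios were formed. The header of GIFN4 A names wild type and GIFN4, and that of GIFN4 B names untreated cells and wild type, so neither states a ratio of GIFN4 to untreated cells. Both libraries are used as labelled. The values have the form of a ratio of GIFN4 to wild type added to that of wild type to untreated cells, and GIFN4 levels against untreated cells rest on that reading. The files list the same names in the same order. The values of IFNG WT A fall without a single step up from the first line to the last. The names beside them instead follow the alphabet (99.6% of the steps in the first 450 lines), so names and values are not paired. No gene is named for this reason. A line is a gene of unknown name, numbered by position, so low numbers mark the largest rises in IFNG WT A and high numbers the largest falls. The tissue of origin and the response of known IFNG target genes could not be checked. The absolute read depth is unknown.

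The quantity described is GIFN4 minus IFNG WT on the log2 scale within each letter, from which the untreated library drops out. It was computed for 13276 lines, those not at 0 in 2 or more of the 8 treated libraries. Fewer cells and less RNA per cell cannot be told apart in such bulk samples.

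The lines that wild-type IFNG raised or lowered most moved in the same direction under GIFN4, and less far. In letter A the log2 ratios had an SD over lines of 0.683 under GIFN4 and 0.886 under wild type, and in letter B of 0.677 and 0.864. The spread of the response over lines was thus smaller under GIFN4 in both letters. The plot of GIFN4 against wild type shows where the lines lie.

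**Figure D1:**
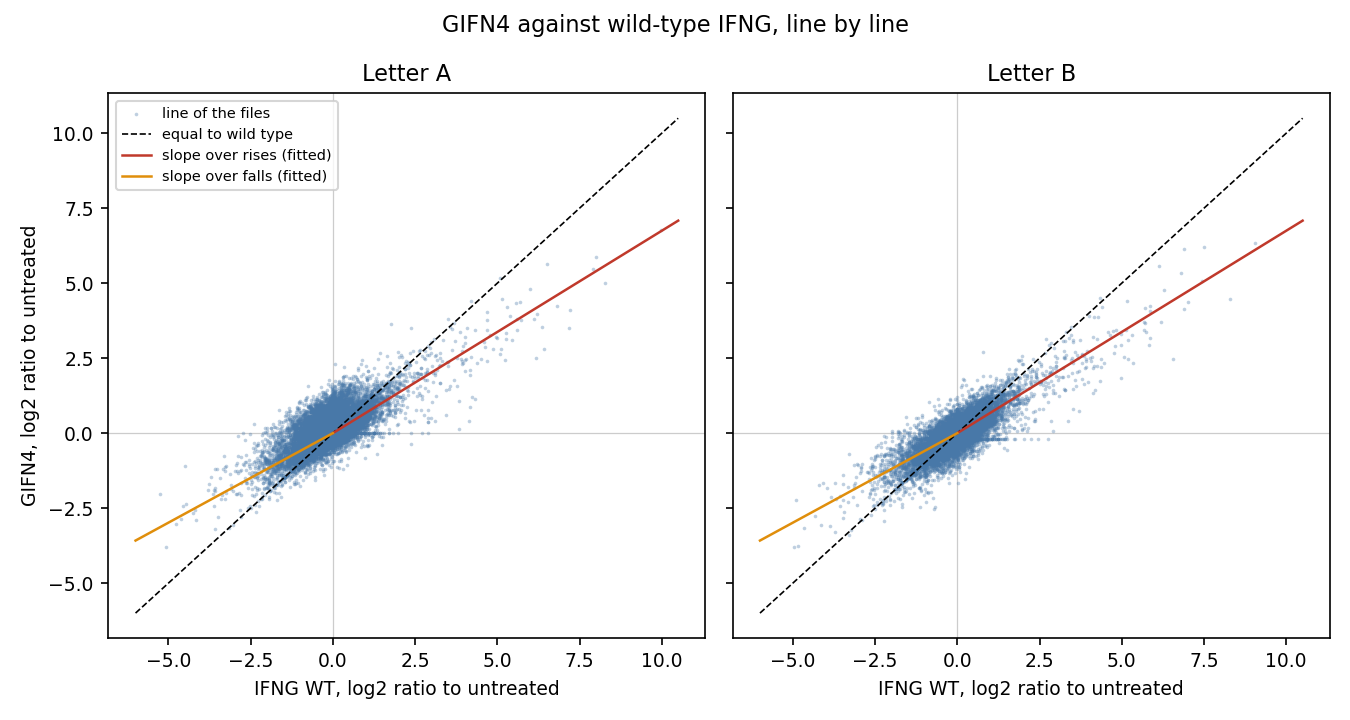
Log2 ratio to untreated cells under GIFN4 (vertical axis) against that under wild-type IFNG (horizontal axis), 1 point per line, for 13276 lines in letter A (left) and B (right). The dashed line marks equality. The solid lines have the fitted slopes over lines changed at least 2-fold by wild type, 0.67 for rises and 0.60 for falls, and the large rises and falls lie nearer to them than to the dashed line.

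The reduction of the rises was measured first. Lines were chosen by their rise in IFNG WT of one letter and measured in the other, so that no library both chose and measured. Among 891 lines that rose at least 2-fold in IFNG WT B, the summed log2 ratio under GIFN4 was 77.3% of that under wild type in letter A. Among 929 lines chosen in IFNG WT A it was 71.2% in letter B. The same sums gave 93.9% and 86.6% for GIFN2 and 95.5% and 88.3% for GIFN3, in A and B. GIFN4 was below both other analogues in each letter. With 2 libraries against 2, an exact permutation test cannot give a two-sided p below 0.333, so these shares carry no test.

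The larger the wild-type rise, the further GIFN4 stayed below it on the log2 scale. For lines that rose by 1 to 2 log2 units in the other letter, the median difference between GIFN4 and wild type was -0.17 in A and -0.22 in B. It was -0.52 and -0.68 for rises of 2 to 3, and -0.94 and -1.24 for rises of 3 to 4. For rises of 4 to 6 it was -1.78 and -1.72, and for rises over 6 it was -2.63 and -2.39. These last groups hold few lines (43 in each letter, then 12 and 13). A constant share of a larger change gives a larger gap by itself. The share itself was 125% in A and 88.3% in B for rises of 0.5 to 1. It fell from 87.4% in A and 75.9% in B for rises of 1 to 2 to 71.0% and 68.0% for rises of 2 to 3. It lay between 63.2% and 67.3% in both letters for all larger rises. A line at the median of the largest rises therefore stood at 16.2% of its wild-type level in A and 19.1% in B. The median of all lines lay 0.11 higher under GIFN4 than under wild type in A, and 0 in B. Such a shift alters the share of small rises most. Its part in the fall of the share was not tested.

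The falls were reduced as well, by an amount that differed between letters. Among 1196 lines that fell at least 2-fold in IFNG WT B, GIFN4 reached 57.0% of the summed fall in letter A. Among 1436 lines chosen in IFNG WT A it reached 72.0% in letter B. GIFN2 reached 88.0% and 98.3%, and GIFN3 85.6% and 94.5%. For falls of 3 or more log2 units in the other letter (35 and 38 lines), the median difference was 1.64 in A and 1.12 in B, so these lines stood at 311% and 217% of the wild-type level. For falls of 1 to 2 it was 0.43 and 0.21.

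Whether falls were kept less well than rises depended on the letter and on the scaling. In A the share of the falls was below that of the rises (57.0% and 77.3%), and in B both were close (72.0% and 71.2%). The median line differed by 0.11 between GIFN4 and wild type in A and by 0 in B. With each library centred on its median, the rises gave 70.9% in A and 72.4% in B, and the falls 64.8% and 70.9%. Relative to that shift, the shares of the rises lay close together in both letters, and the gap between rises and falls in A shrank.

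**Figure D2:**
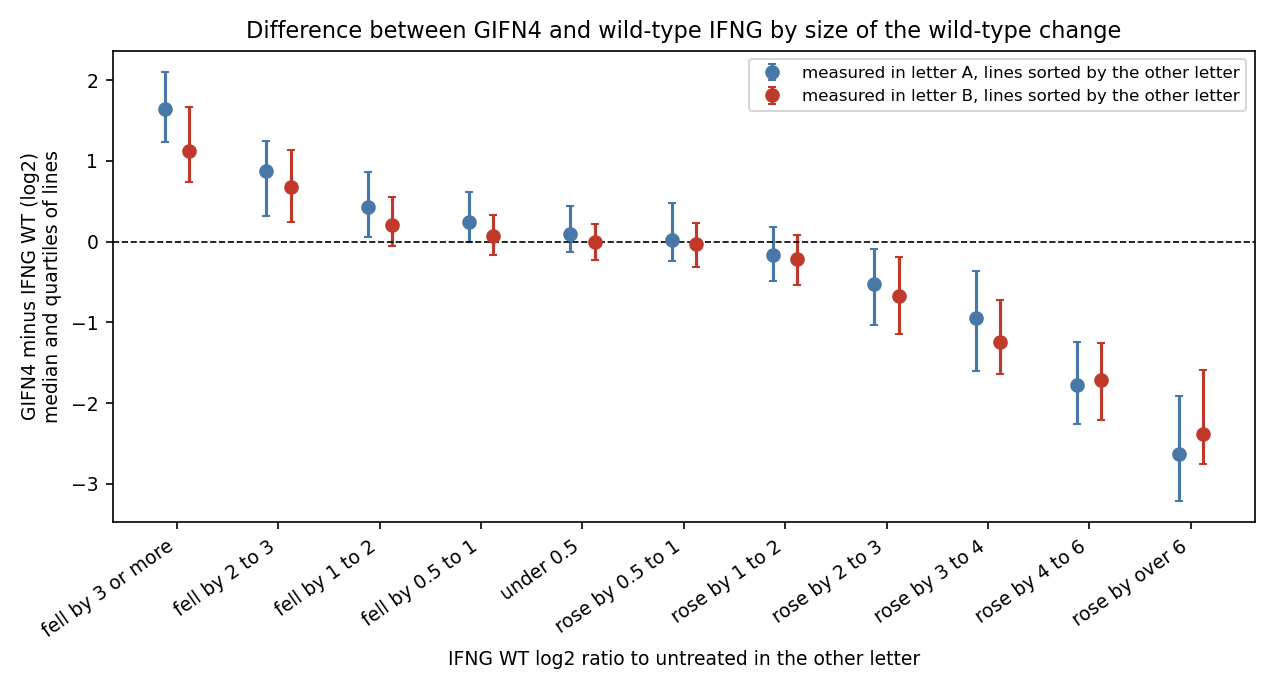
GIFN4 minus wild-type IFNG (log2, vertical axis) for lines grouped by their wild-type log2 ratio in the other letter (horizontal axis). Points are medians and bars the quartiles of lines, for differences measured in A (blue) and B (red). The medians run from 1.64 and 1.12 for the largest falls through 0.09 and 0 for lines changed by under 0.5 to -2.63 and -2.39 for the largest rises.

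The share of lines that stayed near the wild-type level was next counted. A difference under 1.5-fold was taken as near. Of the 13276 lines, 72.6% were near wild type in A and 83.4% in B, and 8346 lines (62.9%) were near it in both. A further 262 lines (1.97%) were at least 1.5-fold lower in both letters and 459 (3.46%) at least 1.5-fold higher in both. In 180 lines the letters passed this limit in opposite directions. The other 4029 lines (30.3%) passed it in 1 letter only, so most lines beyond the limit were not repeated by the other letter.

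The share near wild type followed the size of the wild-type response. It was 77.5% in A and 88.4% in B for lines that wild type changed by under 0.5 log2 units in the other letter. It fell to 66.7% and 73.1% for rises of 1 to 2, to 31.0% and 21.7% for rises of 3 to 4, and to 0% for rises over 6, with 0 of 12 and 0 of 13 lines. For falls it went from 59.2% and 72.9% at 1 to 2 log2 units to 8.57% and 18.4% at 3 or more.

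**Figure D3:**
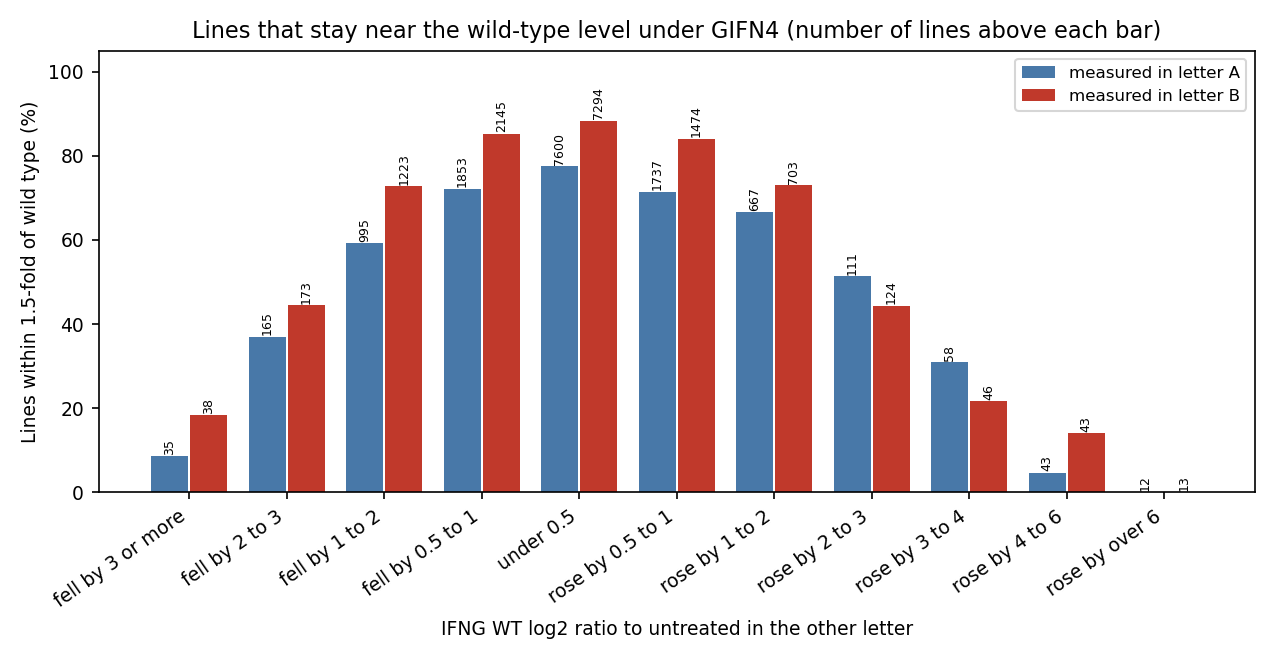
Percentage of lines whose level under GIFN4 was within 1.5-fold of wild type (vertical axis) by the wild-type log2 ratio in the other letter (horizontal axis), measured in A (blue) and B (red), with the number of lines above each bar. The percentage is highest, at 77.5 in A and 88.4 in B, for lines that wild type changed by under 0.5 and is 0 for rises over 6.

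A stricter count used the 95% interval of each line's difference from a limma fit to all 10 libraries. Its spread is thus estimated over all groups, with GIFN2 and GIFN3 included. The untreated libraries enter that fit as 0 in every line. They add to its residual degrees of freedom but hold no measured spread of their own. The intervals were not computed without them and may be narrower than the treated libraries alone would give. In 561 lines (4.23% of those tested) GIFN4 differed from wild type at an adjusted p under 0.05. In 5593 others (42.1%) the interval lay within 1.5-fold of no difference, and in 4380 more (33.0%) within 2-fold. The remaining 2742 lines (20.7%) were neither called nor bounded within 2-fold. Of the 788 lines that wild type raised at least 2-fold, 24.2% were called and 57.0% had an interval within 2-fold. Of the 1094 lines it lowered at least 2-fold, these figures were 19.6% and 44.1%, and 36.3% were undecided. The interval reached a median of 0.47 log2 units to either side over these falls, called lines included, and 0.41 over the rises. These 2 groups were chosen with the wild-type libraries that also enter the difference, so their percentages are descriptions.

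Exact equality in the deposited values marks lines with few reads. GIFN4 and wild type had the same value, other than 0, in 274 lines of letter A (2.11% of those not at 0 in both) and in 297 of B (2.26%). A difference of 0.001 occurred in only 17 and 19. With wild type set to 10 reads, the value of an equal line gave a whole number of untreated reads, within 0.0016 on the log2 scale, in 96.7% of the 274 lines and 96.6% of the 297. The median was 14 untreated reads in A and 13 in B. The equal lines thus have the values that a floor of 10 reads under both proteins gives. Equality there sets no bound on the true difference. Among them 45 lines in A and 49 in B had fallen at least 2-fold under wild type. Line 20780 had -3.15 in A and -3.24 in B under both proteins.

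The 2 letters repeated the reduction most clearly where the response was large. The differences in A and B share no library. Lines were classed by the mean of the GIFN2 and GIFN3 libraries, which are in neither difference. Of 765 lines raised at least 2-fold by those analogues, GIFN4 was below wild type in both letters in 54.8% and above it in both in 11.6%. Of 881 lines lowered at least 2-fold it was above wild type in both letters in 67.2% and below in both in 2.61%. Of the 11630 lines between, it was below in both in 16.4% and above in both in 29.2%. Across lines, which are not independent replicates and share their library within a letter, Pearson's r between the differences in A and B was 0.681, 0.416 and 0.0861 in these 3 classes. The class between pools small rises and small falls, where a reduction has opposite signs. Its percentages thus cannot show whether a reduction was repeated. For wild-type falls of 0.5 to 1 in the other letter, GIFN4 was above wild type in 72.3% of lines in A and 56.9% in B. For rises of 0.5 to 1 it was below in 46.7% and 53.5%.

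**Figure D4:**
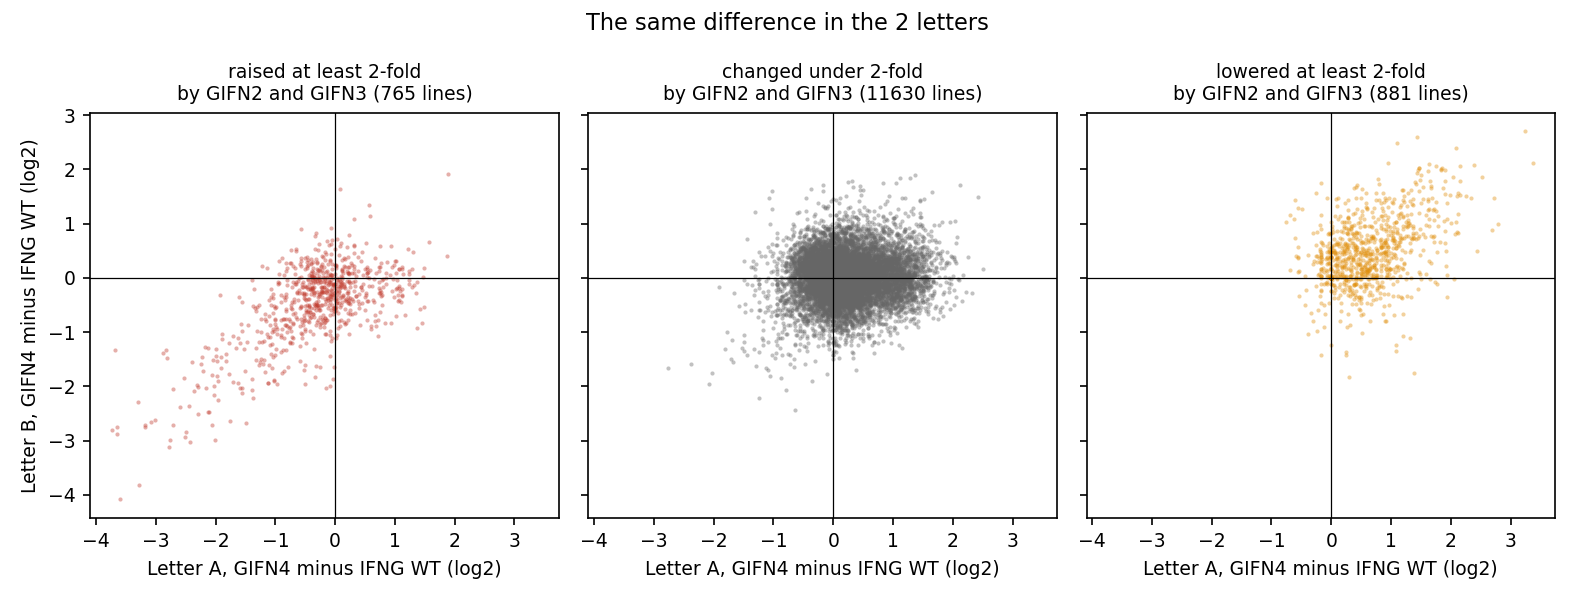
GIFN4 minus wild-type IFNG (log2) in letter B (vertical axis) against letter A (horizontal axis), 1 point per line, for 765 lines raised, 11630 changed by under 2-fold and 881 lowered by GIFN2 and GIFN3. Points of the raised lines stretch along the diagonal down to line 9, at -3.60 in A and -4.08 in B, those of the lowered lines lie mostly above 0 in both, and those between form a cloud that is wider along A.

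Letter A carried an excess of higher values that B did not repeat. In A 1319 lines were at least 2-fold higher under GIFN4 than under wild type, of which 125 (9.48%) were so in B. At least 2-fold lower in A were 222 lines, of which 126 (56.8%) were so in B. In letter B the numbers were 297 higher and 308 lower. Over the 1319 lines the median log2 ratio was -0.76 in IFNG WT A and -0.20 in IFNG WT B, and 0.52 in GIFN4 A and -0.13 in GIFN4 B. GIFN2 A and GIFN3 A had medians of 0.17 and 0.18 over these lines, and GIFN2 B and GIFN3 B of -0.30 and -0.32. IFNG WT was thus lower in A than in B over these lines, and all 3 analogues were higher in A. These lines were chosen by the difference in A, which by itself separates IFNG WT A from GIFN4 A. The part of this excess in the results of letter A was not tested beyond the values given for B.

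The test by line called 221 lines lower under GIFN4 (1.66% of those tested) and 340 higher (2.56%). All 561 had the same sign in both letters. Among the 213 lower lines that wild type had raised, the median fitted share of the wild-type rise was 46.2% (quartiles 20.4% and 62.9%), and 136 were still called above untreated cells under GIFN4. The other 77 (36.2%) had no call against untreated cells. Among the 287 higher lines that wild type had lowered, the median share was 29.9% (quartiles 5.63% and 43.8%). Of these, 130 were still called below untreated cells, 154 (53.7%) had no call and 3 were called above. Over all 13276 lines tested, 3253 were called against untreated cells under GIFN4, in either direction. Lines matched to 20 or fewer reads in at least 1 of the 4 libraries made up 34 of the 221 and 52 of the 340. This is close to their proportion over all lines tested, 1925 of 13276. A line without a call against untreated cells is not shown to be back at that level. Both median shares are of lines called for their difference from wild type, so low values follow from that choice.

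The number of calls rested on the model. Dropping the letter term together with both untreated libraries left 180 calls. A limma fit to GIFN4 A and B and IFNG WT A and B alone, which leaves 1 residual degree of freedom, called 0, with 814 lines at an unadjusted p under 0.05. Leaving out GIFN4 A gave 101 calls and leaving out GIFN4 B gave 129. Either untreated library left out gave 225, either GIFN2 library 293 and either GIFN3 library 272. Leaving out IFNG WT B gave 1739, of which 1416 were higher.

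The 10 lines with the largest called deficits were all strong responders to wild type. Line 9 had log2 ratios of 6.42 and 6.57 under wild type in A and B, and of 2.82 and 2.49 under GIFN4. The wild-type values nearly coincided and both GIFN4 values lay far below. The fitted difference was -3.84 ± 0.16 (SE, adjusted p = 0.00114, limma), which puts GIFN4 at 6.97% of the wild-type level. This SE, like the others given by line, is from the fit to all 10 libraries, with 2 per group and the untreated ones at 0. Line 2 had 8.29 and 8.31 (wild type) against 5.02 and 4.48 (GIFN4). Line 42 had 4.33 and 4.19 against 1.15 and 1.44, with a fitted difference of -2.97 ± 0.15 (adjusted p = 0.00114, limma). GIFN4 kept 30.4% of the rise of line 42 and 57.2% of that of line 2.

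Line 50 had wild-type values of 4.13 and 4.14, and GIFN4 values of 0.39 in A and 1.34 in B, so its GIFN4 letters were far apart. Its fitted rise under GIFN4, 0.87 ± 0.31, had an adjusted p = 0.0943 against untreated cells (limma). Line 1, the highest in the files, had 9.97 and 9.06 under wild type and 6.78 and 6.34 under GIFN4, and kept 69.0% of its log2 rise. In all 10 lines both GIFN4 values lay below both wild-type values. The fitted differences ran from -3.84 to -2.87, and GIFN4 stood at 6.97% to 13.7% of the wild-type level. They were chosen for the size of this difference, so the separation of their groups is no further result.

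Lines 3, 4 and 8 were also among the strongest responders to wild type. Line 3 had 7.995 and 7.51 under wild type and 5.87 and 6.22 under GIFN4, and kept 78.0% of its log2 rise. Its difference of -1.71 ± 0.19 had an adjusted p = 0.00824, and 0.0711 without GIFN4 A (limma). Line 4 had 7.90 and 7.44 against 5.46 and 5.08, and kept 68.7%. Line 8 had 6.52 and 6.91 against 5.66 and 6.14, and kept 87.8%. Its groups did not overlap, but its call (-0.82 ± 0.16, adjusted p = 0.0425, limma) was lost in 11 of 18 alternatives. Line 9, with a wild-type rise like that of line 8, kept 40.8%.

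The 10 lines with the largest called excess had all fallen under wild type. Line 20812 had -5.26 and -4.91 under wild type and -2.02 and -2.22 under GIFN4, a fitted difference of 2.97 ± 0.27 (SE, adjusted p = 0.00454, limma). Its letters lay far nearer to each other than to the other protein. Without GIFN4 A its adjusted p = 0.0519 (limma). Line 20719 had -2.38 and -2.32 under wild type and -0.34 and -0.45 under GIFN4, a difference of 1.95 ± 0.12 (adjusted p = 0.00124, limma), and kept 16.9% of the fall. Line 20793 had -3.57 and -3.47 against -1.18 and -1.40, and it is 1 of 3 of these lines matched to few reads. Line 20756, with -2.73 and -2.16 against -0.00 and -0.69, had the weakest call of the 10. Its adjusted p of 0.0309 (limma) rose to 0.202 without GIFN4 A and 0.124 without GIFN4 B, and its call was lost in 12 of 18 alternatives. In all 10 lines the groups did not overlap, and the fitted differences ran from 1.95 to 2.97. These lines too were chosen for the size of that difference, so the separation of their groups is no further result. The calls of lines 20807, 20786 and 20787 were also lost without GIFN4 A (adjusted p = 0.0527, 0.0575 and 0.0522, limma). Line 20729 lost its call without GIFN4 A (0.0675), GIFN4 B (0.103) or either untreated library (0.0594).

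Line 20811, with the second lowest wild-type response, behaved less like these. It had -5.07 and -4.96 under wild type and -3.81 in both letters under GIFN4, and kept 75.9% of its fall. It is a line with few reads, matched in letter B to 10 reads under wild type and 24 under GIFN4, so its wild-type fall is at the floor there. In letter A wild type and GIFN2 had the same value, -5.07, as a floor gives. The true fall could thus be larger and the share kept smaller. Its adjusted p of 0.00634 rose to 0.0732 without GIFN4 A and 0.0562 without GIFN4 B (limma).

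**Figure D5:**
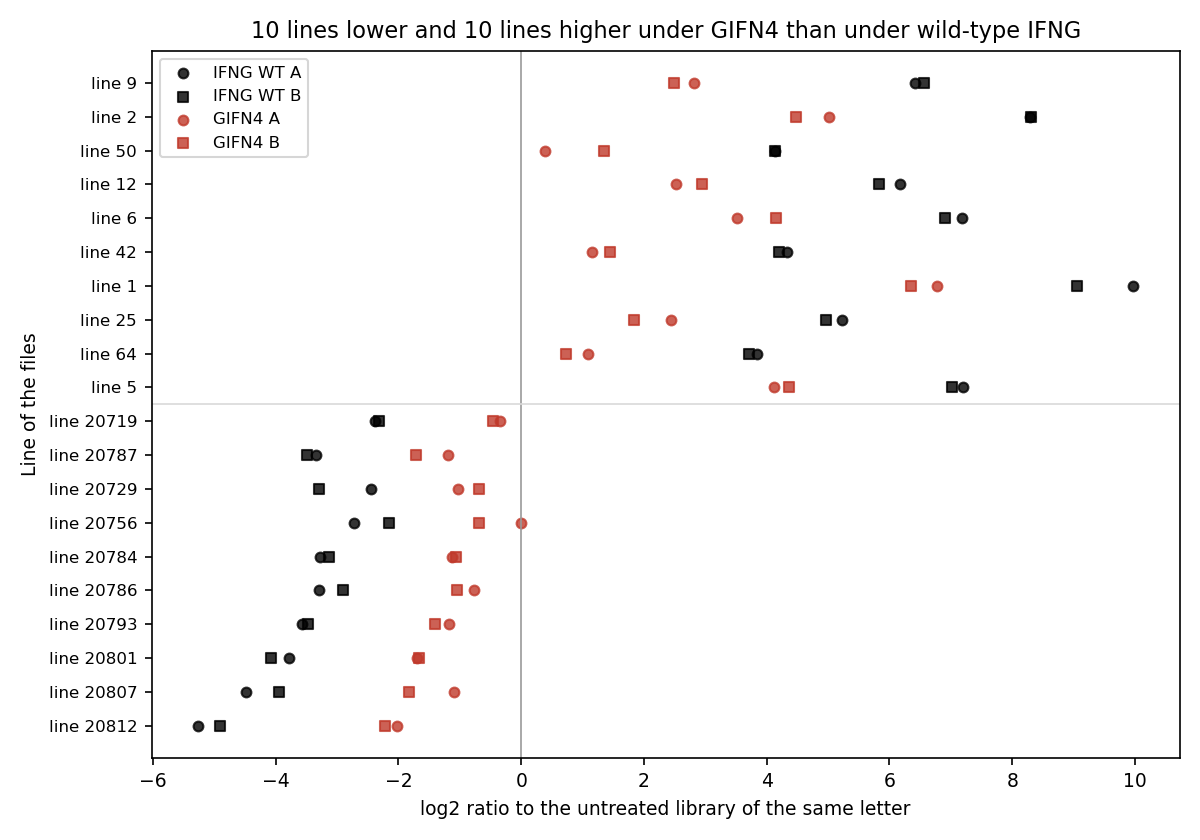
Log2 ratio to untreated cells (horizontal axis) for the 10 lines called lower (top) and the 10 called higher (bottom) with the largest fitted difference, in IFNG WT (black) and GIFN4 (red), letter A as circles and B as squares. In each line both red points lie nearer to 0 than both black points.

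Reduction was not even from line to line, as far as single lines can be read. Over 619 lines that rose at least 2-fold under wild type in both letters, the median line reached 73.7% of the wild-type log2 rise in A and 71.6% in B, with quartiles of 53.7% and 93.7% in A and 53.6% and 89.8% in B. In 79 lines (12.8%) the share was under 50% in both letters, and in 65 (10.5%) it was at least 90% in both. Over 819 falls the medians were 57.2% and 66.5%, with 160 lines (19.5%) under 50% in both and 48 (5.86%) at 90% or more in both. Across lines, r between the shares in A and B was 0.511 for rises and 0.379 for falls. Dividing by a small wild-type change widens such shares.

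A test of each line against the common share called 294 of the 4710 lines changed by wild type (6.24%; limma, adjusted p under 0.05). Among rises, 66 were smaller and 97 larger than 0.67 of the wild-type change. Among falls, 72 were smaller and 59 larger than 0.60 of it, and 25 of these 59 were lines matched to few reads. The count did not withstand the loss of a GIFN4 library: it was 9 without GIFN4 A and 0 without GIFN4 B, where 796 lines had an unadjusted p under 0.05 (limma). Dropping the letter term together with both untreated libraries, with untreated cells taken as 0, left 13. Leaving out either GIFN2 library gave 73, either GIFN3 library 75, untreated A 160, untreated B 178, IFNG WT A 476 and IFNG WT B 902. Departures by line are therefore described by their values only.

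Lines 46 and 28, chosen for their large departure above the common share, were rises with GIFN4 values near those of wild type. Line 46 had 4.19 and 4.33 under wild type and 4.41 and 4.52 under GIFN4. Line 28 had 5.09 and 4.39 under wild type and 5.17 and 4.20 under GIFN4. Wild type and GIFN4 lay close together in each letter of both lines. Line 42, with a wild-type rise like that of line 46, was among the 10 lines with the largest deficit. The difference from wild type was 0.20 ± 0.12 in line 46 and -0.06 ± 0.23 in line 28 (SE of the fit to all 10 libraries).

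Lines 108 and 103, chosen for their large departure below the common share, were rises that GIFN4 hardly gave. Line 108 had 2.90 and 2.74 under wild type and 0.39 and -0.19 under GIFN4, which is around the untreated level. Line 103 had 2.99 and 2.92 against 0.50 and 0.07. Their fitted shares were 3.45% and 9.57%, and the GIFN4 rise of neither was called (adjusted p = 0.691 and 0.186, limma).

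Among the falls, lines 20380 and 20155 were also chosen for their departure. They stood below untreated cells under wild type and above them under GIFN4 in each letter. Line 20380 had -1.64 and -1.12 against 0.78 and 0.36, and line 20155 had -1.41 and -1.62 against 0.71 and 0.09. Neither was called above untreated cells under GIFN4 (adjusted p = 0.115 and 0.240, limma). Without GIFN4 A their difference from wild type had adjusted p = 0.0807 and 0.0918, and line 20155 had 0.0562 without GIFN4 B (limma). Lines 16338, 16695 and 17089 were called in opposite directions by the 2 proteins against untreated cells, with wild-type falls at adjusted p = 0.0468, 0.0455 and 0.0160 (limma). Line 16695 had -0.41 and -0.37 under wild type and 0.90 and 0.85 under GIFN4. Its difference of 1.27 ± 0.12 had an adjusted p = 0.0539 without GIFN4 A (limma). Line 16338 (1.05 ± 0.13) had 0.0807 without GIFN4 A and 0.0960 without GIFN4 B, and line 17089 (0.86 ± 0.11) had 0.102 and 0.0861 (adjusted p, limma).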

How the data were processed

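A549 transcripts were amplified with the human AmpliSeq transcriptome panel and sequenced on an Ion S5 XL instrument, per the labels' protocols. Reads refer to hg19, as listed per the submitters' processing notes. The authors deposited log2 ratios to 3 decimals, per the file headers named log2(DER). The counting and scaling steps are not given in the sources used here. Some headers, those of both GIFN4 libraries included, name another comparison than the sample label does. The untreated files hold 0 throughout, and groups follow the sample labels. The series calls A and B biological replicates without saying what was repeated, so p-values measure the spread between these libraries. PCR reads without molecular identifiers are not independent molecules.

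Lines were matched by position. Tests used R 4.3.3 with limma 3.58.1 (Benjamini-Hochberg adjustment over 13276 lines, robust empirical Bayes) on all 10 libraries. Group and letter were terms, with 4 residual degrees of freedom. Only the test against the common share was adjusted over fewer lines, the 4710 called under wild type. These were chosen with wild-type libraries that also enter that test, and the common shares were fitted to the same libraries. The letter is in the fit because ratios of a letter are read as sharing an untreated library. As a check of the pairing, the A minus B deviations of GIFN4 and wild type had a correlation of 0.0296 over lines. The check thus showed no common deviation of both proteins within a letter, of the kind that noise in a shared untreated library would leave. The letter term rests on the reading of the values alone. The test was also run on simulated ratios. These shared the noise of an untreated library within each letter, with GIFN2 and GIFN3 set equal to wild type. The data differ from that setting, so the simulation does not show how the test performs on them. Few reads means a match of a letter's values, within 0.0016, to whole read numbers with 20 or fewer in IFNG WT or GIFN4. Named lines are the 10 largest called differences in each direction, the 5 extremes of the wild-type response on either side, lines called in opposite directions, and the 5 largest departures from the common share on each side. Members, lists and tests were chosen with earlier results of these data known. Alternatives are in the closing section.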

Additional observations from a re-analysis of the deposited data

How the results depend on the processing

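The counts of called lines depended most on the model and on single libraries. Leaving out 1 of the 10 libraries gave 101 to 1739 calls between GIFN4 and wild type, 60 to 323 lower, 41 to 1416 higher, and 0 to 902 departures from the common share. Without the replicate block and both untreated libraries, which were dropped together, the numbers were 180, 89, 91 and 13. The 180 calls were all among the 561. With the GIFN4 and wild-type libraries only they were 0, 0 and 0, and the departure test was not run on that fit. With no filter they were 195, 86, 109 and 543, where the added lines include 7414 at 0 with no spread. The other alternatives (a stricter filter, median centring, no robust step, a trend, 1 slope for rises and falls, and leaving out lines with few reads) kept all 4 counts within 1.5 times. No named line changed the sign of a called difference. The share of the rise in letter A was 67.1% with a 4-fold threshold, 68.4% when the same letter chose and measured, 68.3% as a slope and 70.9% with median centring. In letter B the first 2 of these gave 66.3% and 65.4%. Shares of the falls moved by less than the SD of the letters under every alternative run, an SD that is large (10.6 points). Choosing lines by GIFN2 and GIFN3, added after seeing the data, gave 80.9% and 73.9% for rises and 61.6% and 70.5% for falls. Leaving out lines with few reads, also added afterwards, gave 79.4% and 74.1%, and 56.5% and 71.5%. Lines near wild type in both letters made up 76.3% of lines with no filter and 85.8% with a 2-fold limit. The shares need both letters of both proteins, so no library was left out for them. The cause of these changes was not tested. The floor near 10 reads limits small values and makes equality there uninformative.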

Other observations

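A small group of lines differed between GIFN4 and wild type although wild type gave no call against untreated cells. There were 51 such lines higher under GIFN4 and 8 lower, together 0.689% of the 8566 lines not called under wild type, against 4.23% called over all lines tested. Of the 51, 41 were called above untreated cells under GIFN4. Over all 13276 lines tested, 3253 were called against untreated cells under GIFN4, in either direction. The 51 were chosen for being higher under GIFN4. The median log2 ratio of these 51 lines was 0.83 in GIFN4 A and 0.66 in GIFN4 B, against -0.12 and -0.09 in IFNG WT A and B. The mean of letters had a median of 0.23 under GIFN2 and 0.32 under GIFN3 over these lines, between wild type and GIFN4. Of the 51 lines, 6 were matched to few reads and 10 had wild-type values of opposite sign in A and B. Of the 8 lower lines, 5 were called below untreated cells under GIFN4, with medians of -0.41 and -0.59 in GIFN4 A and B and 0.36 and 0.25 in IFNG WT A and B. These lines were chosen by the difference itself, so their values carry no further test.

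Line 1169 lay above wild type in both GIFN4 libraries, with 0.87 and 0.89 under wild type against 2.44 and 1.55 under GIFN4. Its difference of 1.11 ± 0.27 was not called (adjusted p = 0.0809, limma).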
